A study of Homo sapiens with 72 samples.

Results

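The early response to ultraviolet light (UV) was compared between cells without STK19 and unedited cells. For each gene, the change between 0 h and 3 h after UV was averaged over 2 STK19 knockout lines, and the change in WT was taken from that mean. Of 15470 genes tested, 4201 (27.2%) had a difference of changes at an adjusted p under 0.05 in edgeR, the threshold used for every call: 1559 (10.1%) higher and 2642 (17.1%) lower. In 12 of them the lines gave estimates of opposite sign. The other 4189 genes (27.1% of those tested) are described here: 1552 (10.03%) were higher and 2637 (17.05%) lower in the knockouts' response. Higher means that a gene rose more, or fell less, on the log2 scale in the knockouts than in WT. SPRY4, EGR1, RNF144B and BCAR3 were among the leading higher genes, and ID2 and PHLDA1 among the leading lower ones.

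All cells were HEK293 Flp-In T-REx, a human embryonic kidney line built for tetracycline-controlled expression. STK19_KO1 and STK19_KO2 are labelled as separate knockouts of STK19, presumably 1 clone each, and WT was the sole unedited line. Each line gave 3 libraries at 3 h with no inhibitor and 3 libraries labelled untreated, taken as 0 h, so that 18 of the series' 72 libraries enter the contrast. The series' design text describes the irradiation for WT, and the knockout libraries carry the same time labels. No label used here states the dose of UV. CSB_KO, a knockout of ERCC6 in the same cells with the same 2 conditions, serves below as a further line. No unirradiated library at 3 h was analysed here, so UV and time in culture cannot be told apart. A trait of WT that all edited lines lack cannot be told apart from the knockout.

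UV makes bulky lesions that stop RNA polymerase II in transcribed DNA. In transcription-coupled repair, CSB (the product of ERCC6) recognises the stalled polymerase, CSA (ERCC8), UVSSA and ELOF1 join it, and TFIIH is brought in to open and verify the damage. STK19 binds the stalled complex and is needed for this pathway. Soon after UV, RNA of long genes falls because elongating polymerases meet lesions, while RNA of short, inducible genes often rises. Stress kinase and ERK signalling, which UV also starts, drives immediate early genes such as EGR1 and FOS.

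Library totals ran from 42.2 to 116 M counts (median 60.8 M). Levels are in CPM, counts of a gene divided by its library total after trimmed-mean scaling. They are relative to all other RNA in a library and are not compared between genes. Fewer cells and less RNA per cell cannot be told apart in them. Replicate 1 of WT stood apart from the other 2 at both times: its root-mean-square log2 distance to them was 0.234 to 0.253 at 0 h, against 0.0958 between them, and 0.413 to 0.425 at 3 h, against 0.0928. Replicate 3 of STK19_KO1 at 3 h lay 0.231 and 0.290 from its partners, against 0.167 between them. All 11 HEK293 markers were detected. Their summed level at 3 h was 1485 to 1777 CPM in the knockouts and 2047 to 2098 CPM in WT. At 0 h it was 1443 to 1727 CPM in the knockouts and 1547 to 1622 CPM in WT. Most of each sum was VIM, with group means of 793 to 1363 CPM. Group means of NEFM, PAX2, LHX1 and EYA1 ran from 0.398 to 8.04 CPM. Summed markers of blood (0.352 to 2.06 CPM), fibroblasts (4.41 to 12.6 CPM), squamous epithelium (16.4 to 46.96 CPM, nearly all KRT10) and kidney tubule (10.98 to 25.7 CPM, nearly all LRP2) were low. PTPRC and HBB were at 0 in at least 1 group, and the highest group mean of DCN was 0.0996 CPM. CD14 was the single marker outside the HEK293 list with a call: it averaged 1.43 CPM in STK19_KO1, 0.761 in STK19_KO2 and 1.75 in WT at 3 h. The part of these levels in the results was not tested.

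STK19 itself is at chr6:31971091-31982821 in the deposited GRCh38 coordinates and overlaps DXO and C4A. At 3 h STK19 RNA stood at 21.6, 21.04 and 27.1 CPM in STK19_KO1, 21.1, 22.2 and 19.9 CPM in STK19_KO2 and 21.8, 25.01 and 26.2 CPM in WT. At 0 h STK19 RNA stood at 16.8, 17.6 and 17.97 CPM in STK19_KO1, 18.1, 16.97 and 16.4 CPM in STK19_KO2 and 17.8, 19.5 and 19.7 CPM in WT. The lines overlapped at 3 h, and the difference of changes was -0.01 ± 0.09 (SE; edgeR adjusted p = 0.9778). The RNA level therefore does not check the knockout labels. ERCC6 at 0 h averaged 6.97 ± 0.611 CPM in CSB_KO and 23.5 ± 0.473 CPM in WT (SD, n = 3 each), so the level lies in the direction of the CSB_KO label.

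The region before the start of each of 4 genes is shown because these inducible genes, 2 in each direction, are leading members. Of the motifs searched, EGR1 holds CArG boxes alone and the other 3 hold GC boxes alone, in both directions. The sequences are from RefSeq (GRCh38.p14), 5′ to 3′ on the gene's own strand, and end at the base before the RefSeq start, which for SPRY4 and ID2 lies inside the span of the deposited table. Capitals mark CArG boxes in EGR1, the serum response element motif, and GC boxes (GGGCGG, or its reverse complement in ID2) in the other 3.
EGR1: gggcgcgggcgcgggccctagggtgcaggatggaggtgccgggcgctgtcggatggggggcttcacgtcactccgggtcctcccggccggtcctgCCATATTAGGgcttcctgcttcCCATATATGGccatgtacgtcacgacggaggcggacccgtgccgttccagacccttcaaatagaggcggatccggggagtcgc
SPRY4: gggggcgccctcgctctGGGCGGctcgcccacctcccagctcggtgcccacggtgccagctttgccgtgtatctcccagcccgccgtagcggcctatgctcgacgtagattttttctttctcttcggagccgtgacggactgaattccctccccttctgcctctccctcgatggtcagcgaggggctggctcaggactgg
ID2: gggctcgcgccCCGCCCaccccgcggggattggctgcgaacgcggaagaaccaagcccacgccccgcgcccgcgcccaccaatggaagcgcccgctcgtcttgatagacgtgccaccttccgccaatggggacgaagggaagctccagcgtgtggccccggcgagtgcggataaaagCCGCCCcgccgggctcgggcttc
PHLDA1: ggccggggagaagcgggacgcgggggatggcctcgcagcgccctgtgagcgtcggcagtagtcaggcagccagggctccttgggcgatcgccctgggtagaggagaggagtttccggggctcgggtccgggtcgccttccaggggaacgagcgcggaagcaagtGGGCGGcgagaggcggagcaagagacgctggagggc

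These stretches are chr5:138465279-138465478 (plus strand), chr5:142324248-142324447 (minus), chr2:8681856-8682055 (plus) and chr12:76031777-76031976 (minus). The 2 CArG boxes of EGR1 lie at positions -105 to -96 and -83 to -74 relative to its start. Promoters were matched for 12132 of the 15463 genes looked up, and each motif was searched on both strands. A CArG box was present in 1.13% of higher members, 1.46% of lower members and 1.13% of all genes. An ETS site (CCGGAAG) was present in 21%, 20.2% and 17.4% in the same order, and a GC box (GGGCGG) in 71.9%, 71.4% and 68.4%. The shares for a cAMP response element (TGACGTCA) were 3.62%, 4.01% and 3.12%, and for an AP-1 site (TGANTCA) 4.34%, 4.33% and 4.58%. A heat shock element (GAANNTTC) was in 3.86%, 5.06% and 4.83%, an E-box (CACGTG) in 9.65%, 10.6% and 9.81%, and a TATA box (TATAAA) in 5.15%, 5.93% and 6.57%. These shares describe letters in a window and were not tested.

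Most genes had changed by 3 h. The mean change of the STK19 knockouts was called for 10537 genes (68.1%; 5482 or 35.4% up, 5055 or 32.7% down), and the change in WT for 9653 (62.4%; 5192 or 33.6% up, 4461 or 28.8% down). Of the 1552 higher members, 619 (39.9%) fell in both, 261 had no call in the knockouts and fell in WT, 100 rose in the knockouts and fell in WT, 338 rose in the knockouts with no call in WT, and 221 rose in both. Of the 2637 lower members, 847 (32.1%) rose in both, 678 fell in both, 482 fell in the knockouts with no call in WT, 457 had no call in the knockouts and rose in WT, and 160 fell in the knockouts and rose in WT. For 13 members in each direction neither change was called. In size, 351 higher and 145 lower members (2.27% and 0.937% of genes tested) differed at least 1.5-fold, and 98 higher and 72 lower (0.633% and 0.465%) at least 2-fold. The lower set was thus larger, and the higher set held more of the large differences. These counts had no lower limit on level. Estimates of all genes ran from -11.2 to 8.57 below a mean log2 CPM of 2. They ran from -1.19 to 1.86 between 2 and 4, and from -1.12 to 1.59 between 4 and 6. Between 6 and 8 they ran from -0.80 to 0.72, and from 8 up from -0.55 to 0.44. No gene in these last classes differed 2-fold. Over all 15470 genes the median difference was -0.042 on the log2 scale, and 44.3% of estimates were above 0.

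**Figure D1:**
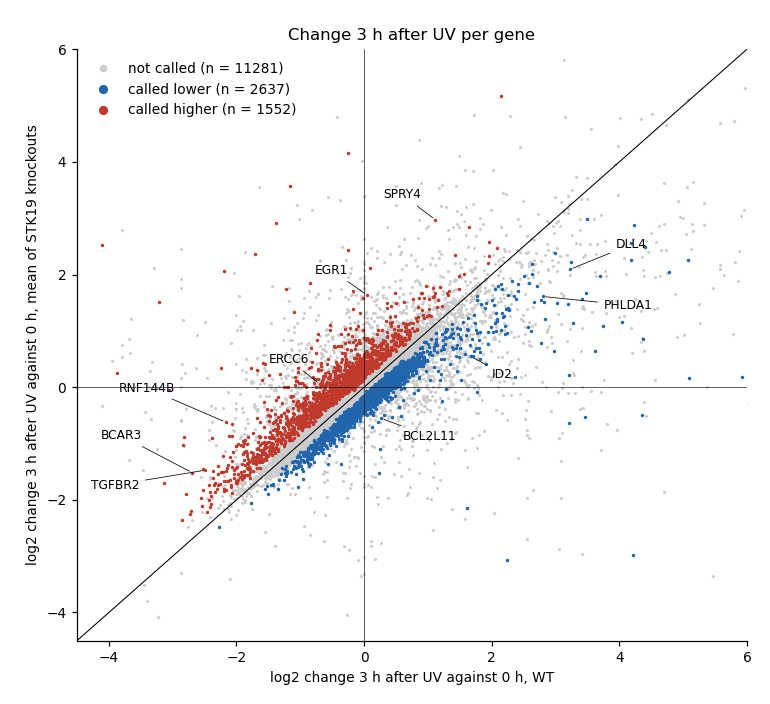
Mean log2 change of the STK19 knockouts (vertical) against the log2 change in WT (horizontal), 3 h minus 0 h, for the genes tested; coloured points are the 1552 higher and 2637 lower members. Most members lie close to the diagonal of equal change, and 37 genes fall outside the axes.

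The line drawn between higher and lower members moves with the scaling. With upper quartile scaling in edgeR the members were 2273 higher and 1303 lower, so 63.6% were higher, against 37.1% with the trimmed mean, and the median of all genes moved to 0.041. A fit on the 18 libraries alone called 1321 genes, with 690 higher and 630 lower members. Without replicate 1 of WT at both times, 1341 members were higher and 1916 lower, and 66.4% of the 4189 members were shared. Of the changes of single libraries at 3 h, each set against its line's 0 h mean, those of all 6 knockout libraries lay above those of all 3 WT libraries for 963 higher members (6.22% of genes tested). They lay below for 1585 lower members (10.2%). Members were called on these same libraries, so such separation is expected of them, and it was not counted among the other genes.

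A large group of higher members fell in WT and fell less, or had no called change, in the knockouts. RNF144B, a RING-type ubiquitin ligase induced by p53, spans 81.5 kb at chr6:18387350-18468870. At 3 h RNF144B stood at 5.28, 4.40 and 4.09 CPM in STK19_KO1, 4.90, 5.29 and 5.49 CPM in STK19_KO2 and 1.41, 0.869 and 1.03 CPM in WT. At 0 h RNF144B stood at 7.34, 6.95 and 7.52 CPM in STK19_KO1, 7.66, 7.63 and 8.15 CPM in STK19_KO2 and 4.74, 4.72 and 5.19 CPM in WT. All 6 knockout libraries were above all 3 WT libraries at both times, and the gap was wider at 3 h. The log2 change was -0.62 in the STK19 knockouts and -2.17 in WT, a difference of 1.54 ± 0.16 (SE; edgeR adjusted p = 5.791e-11).

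TGFBR2, the type II receptor that binds TGF-beta and phosphorylates its type I partner, is at chr3:30606601-30694142. At 3 h TGFBR2 stood at 8.04, 7.20 and 6.26 CPM in STK19_KO1, 5.49, 6.23 and 5.99 CPM in STK19_KO2 and 2.64, 2.42 and 2.58 CPM in WT. At 0 h TGFBR2 stood at 20.6, 20.96 and 20.4 CPM in STK19_KO1, 16.6, 15.2 and 15.8 CPM in STK19_KO2 and 14.3, 14.1 and 14.5 CPM in WT. It fell in every line, and at 3 h the lowest knockout library was above the highest WT library by more than the range within any line. The difference of changes was 1.02 ± 0.14 (edgeR adjusted p = 1.303e-07). BCAR3 and STARD13 also fell everywhere and further in WT. BCAR3, an adaptor of integrin signalling spanning 285 kb, changed by -1.52 in the STK19 knockouts and -2.69 in WT, and STARD13, a GTPase-activating protein spanning 247 kb, by -1.45 in the STK19 knockouts and -2.52 in WT. Their differences were 1.17 ± 0.17 and 1.07 ± 0.16 (edgeR adjusted p = 8.537e-07 and 1.089e-06). For ZFYVE1, a FYVE-domain protein that marks sites of autophagosome formation, the log2 change was -0.28 in the STK19 knockouts and -1.29 in WT, a difference of 1.01 ± 0.11 (edgeR adjusted p = 6.546e-10). C3orf70 changed by -0.22 in the STK19 knockouts and -1.37 in WT, a difference of 1.15 ± 0.16 (edgeR adjusted p = 2.281e-07).

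The repair gene ERCC6 was itself a higher member. At 3 h ERCC6 stood at 25.7, 24.6 and 18.1 CPM in STK19_KO1, 28.9, 29.1 and 28.3 CPM in STK19_KO2 and 13.8, 14.9 and 14.98 CPM in WT. At 0 h ERCC6 stood at 24.4, 24.1 and 23.3 CPM in STK19_KO1, 25.3, 25.9 and 25.6 CPM in STK19_KO2 and 23.4, 23.99 and 23.05 CPM in WT. The knockouts had no called difference from WT at 0 h. At 3 h every knockout library was above every WT library, with replicate 3 of STK19_KO1 the nearest to WT. The difference of changes was 0.74 ± 0.09 (edgeR adjusted p = 6.057e-09). ERCC8 (-0.06), UVSSA (0.11) and ELOF1 (-0.01) had no call.

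A second group of higher members rose in the knockouts and rose less, or had no called rise, in WT. EGR1, an immediate early zinc finger transcription factor, is a compact gene of 3.83 kb at chr5:138465479-138469303. At 3 h EGR1 stood at 44.6, 50.9 and 49.6 CPM in STK19_KO1, 88.9, 83.6 and 88.2 CPM in STK19_KO2 and 48.9, 52.1 and 54.4 CPM in WT. At 0 h EGR1 stood at 21.6, 21.3 and 21.9 CPM in STK19_KO1, 20.2, 20.7 and 19.5 CPM in STK19_KO2 and 44.8, 53.6 and 52.1 CPM in WT. At 0 h every knockout library was below every WT library, whereas at 3 h STK19_KO1 overlapped WT and STK19_KO2 lay above both. EGR1 rose in the knockouts (log2 change 1.64) and had no called change in WT (0.04, edgeR adjusted p = 0.5478). The difference of changes was 1.59 ± 0.08 (edgeR adjusted p = 9.932e-24), and by line it was 1.12 in STK19_KO1 and 2.06 in STK19_KO2.

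SPRY4, a Sprouty protein that restrains receptor signalling to ERK, spans 16.03 kb at chr5:142310427-142326455. At 3 h SPRY4 stood at 10.4, 10.8 and 9.35 CPM in STK19_KO1, 18.9, 17.4 and 18.5 CPM in STK19_KO2 and 30.8, 34.4 and 33.2 CPM in WT. At 0 h SPRY4 stood at 1.52, 2.59 and 1.97 CPM in STK19_KO1, 1.27, 1.81 and 1.36 CPM in STK19_KO2 and 15.7, 14.9 and 15.03 CPM in WT. SPRY4 was lower in the knockouts than in WT at both times. Its larger log2 rise, from 1.27 to 2.59 CPM at 0 h, narrowed that gap on the log2 scale only. The log2 difference from WT was -1.27 at 3 h and -3.13 at 0 h, whereas in CPM the gap did not narrow. The difference of changes was 1.86 ± 0.11 (edgeR adjusted p = 1.506e-19).

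PER2, a repressor in the circadian clock, averaged 12.01 ± 1.23 CPM in STK19_KO1, 13.2 ± 0.504 CPM in STK19_KO2 and 7.23 ± 1.79 CPM in WT at 3 h (SD, n = 3 each). At 0 h PER2 averaged 7.14 ± 0.687 CPM in STK19_KO1, 6.95 ± 0.575 CPM in STK19_KO2 and 8.03 ± 0.741 CPM in WT. The lines overlapped at 0 h, and at 3 h every knockout library was above every WT library. Its difference was 0.98 ± 0.13 (edgeR adjusted p = 7.862e-08). SYNM, which encodes the intermediate filament protein synemin, rose in the knockouts by 1.03 with no called change in WT (-0.12), a difference of 1.14 ± 0.14 (edgeR adjusted p = 1.009e-08). The differences of ZSWIM4 and of UFSP1, a gene of the UFM1 protease family, were 1.17 ± 0.23 and 1.09 ± 0.22 (edgeR adjusted p = 9.59e-05 and 0.0001925). In both, replicate 1 of WT at 3 h was the lowest library. It had 1.51 CPM of ZSWIM4, against 4.28 and 4.47 in the other WT libraries at 3 h, and 2.90 CPM of UFSP1, against 5.77 and 5.81.

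**Figure D2:**
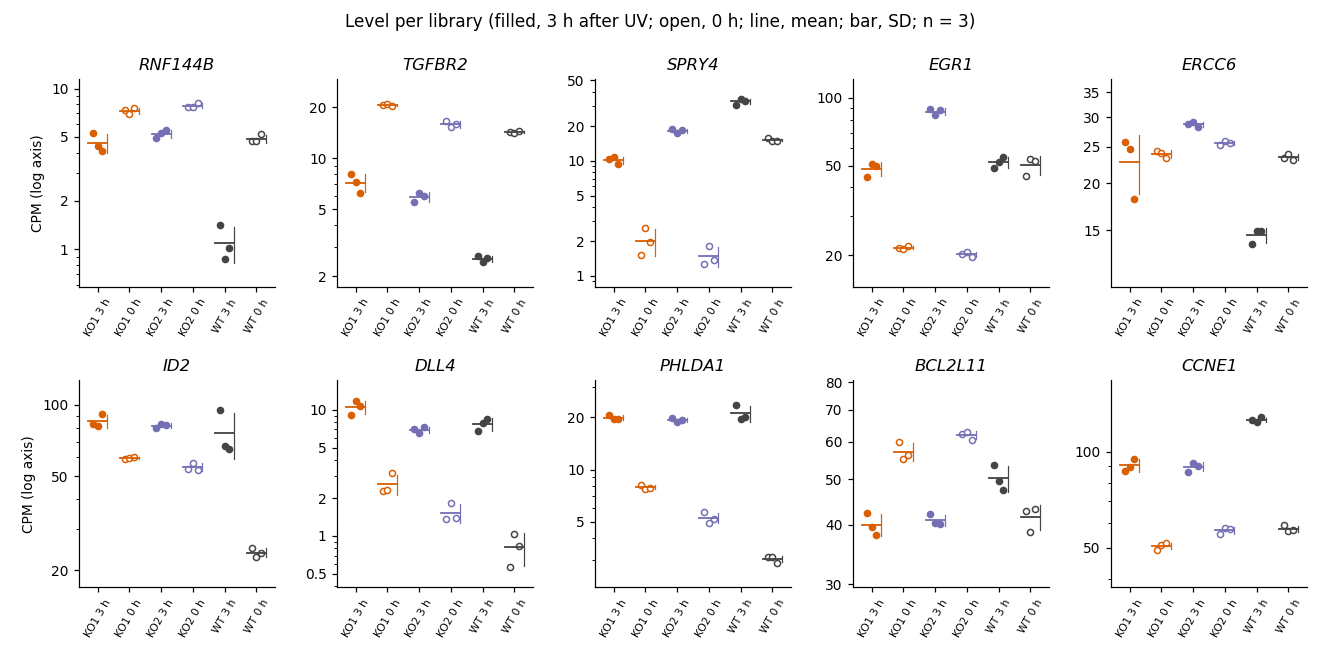
Level in CPM (vertical, log scale) of 10 members in each library of STK19_KO1, STK19_KO2 and WT at 3 h and at 0 h. Points are libraries, 3 libraries a group, and group means are marked. EGR1 and SPRY4 start lower in the knockouts, ERCC6 starts at the same level, DLL4 starts higher in the knockouts, and ID2 and PHLDA1 start higher there and end close to WT.

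The lower members with the largest differences were mostly short, inducible genes that rose in both but by less in the knockouts. ID2, a helix-loop-helix protein that blocks DNA binding by its partners, is at chr2:8678845-8684461. At 3 h ID2 stood at 83.2, 81.4 and 91.3 CPM in STK19_KO1, 79.6, 83.2 and 82.4 CPM in STK19_KO2 and 94.998, 67.1 and 65.3 CPM in WT. At 0 h ID2 stood at 58.9, 59.8 and 60.03 CPM in STK19_KO1, 53.8, 57.01 and 53.1 CPM in STK19_KO2 and 24.8, 22.7 and 23.8 CPM in WT. At 0 h every knockout library was above every WT library, and at 3 h the groups overlapped, with replicate 1 of WT the highest library. The log2 change was 0.55 in the STK19 knockouts and 1.67 in WT, a difference of -1.12 ± 0.08 (edgeR adjusted p = 5.005e-16).

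PHLDA1, a pleckstrin homology-like protein of the early response to growth factors and stress, is at chr12:76025447-76031776. At 3 h PHLDA1 stood at 20.6, 19.6 and 19.6 CPM in STK19_KO1, 19.97, 18.9 and 19.3 CPM in STK19_KO2 and 23.7, 19.7 and 20.1 CPM in WT. At 0 h PHLDA1 stood at 8.13, 7.73 and 7.86 CPM in STK19_KO1, 5.66, 4.92 and 5.18 CPM in STK19_KO2 and 3.11, 3.13 and 2.89 CPM in WT. Here too the lines were apart at 0 h and overlapped at 3 h, and the difference of changes was -1.19 ± 0.10 (edgeR adjusted p = 3.345e-13). The Notch ligand gene DLL4 changed by 2.09 in the STK19 knockouts and 3.23 in WT, a difference of -1.13 ± 0.18 (edgeR adjusted p = 4.275e-06). At 0 h the knockouts were above WT by 1.29 for DLL4.

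BCL2L11, which encodes the pro-apoptotic BH3-only protein BIM, moved in opposite directions. At 3 h BCL2L11 stood at 42.4, 39.6 and 38.1 CPM in STK19_KO1, 42.2, 40.4 and 40.2 CPM in STK19_KO2 and 53.7, 49.5 and 47.3 CPM in WT. At 0 h BCL2L11 stood at 59.7, 55.1 and 56.3 CPM in STK19_KO1, 62.2, 62.9 and 60.5 CPM in STK19_KO2 and 42.7, 38.6 and 43.2 CPM in WT. It fell by 0.55 in the knockouts and rose by 0.27 in WT, so that the knockouts were above WT at 0 h and below it at 3 h in every library. The difference was -0.82 ± 0.06 (edgeR adjusted p = 7.398e-15).

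TENT5A, a non-canonical poly(A) polymerase gene, averaged 23.4 ± 1.64 CPM in STK19_KO1, 29.6 ± 0.932 CPM in STK19_KO2 and 42.6 ± 6.96 CPM in WT at 3 h. At 0 h TENT5A had no called difference, at 17.3 ± 0.709 CPM in STK19_KO1, 19.9 ± 0.363 CPM in STK19_KO2 and 17.8 ± 0.318 CPM in WT, and the difference of changes was -0.76 ± 0.09 (edgeR adjusted p = 3.753e-09). The remaining leading lower members differed by -1.10 (EHBP1L1), -0.97 (SKIDA1), -0.97 (OVGP1), -0.92 (IGIP), -0.83 (the readthrough gene ATP6V1G2-DDX39B), -0.75 (ANKLE1) and -0.72 (MUC16). ATP6V1G2-DDX39B overlaps DDX39B and ATP6V1G2, SKIDA1 overlaps MLLT10 and ANKLE1 overlaps USHBP1, so counts of these 3 may hold reads of a neighbour. In MUC16 the library changes of knockouts and WT overlapped. Of these 23 leading genes, 21 kept their call under all 27 alternatives, the exceptions being ATP6V1G2-DDX39B and MUC16. Without replicate 1 of WT at both times ATP6V1G2-DDX39B differed by -0.54 (edgeR adjusted p = 0.1196), and without replicate 2 of WT at 3 h MUC16 differed by -0.48 (edgeR adjusted p = 0.05531).

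**Figure D3:**
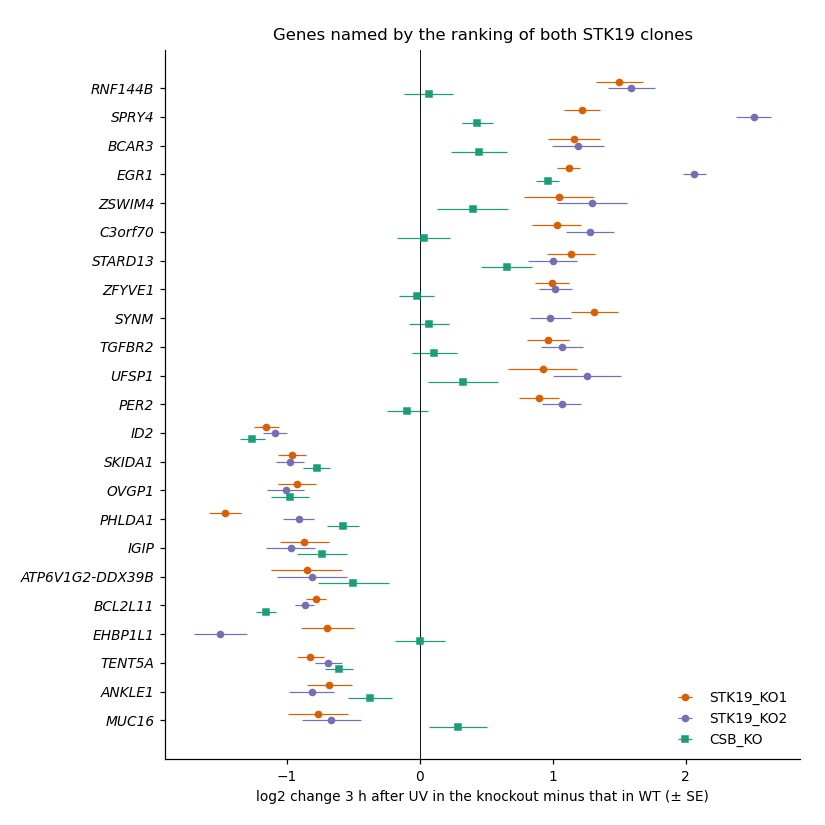
Log2 difference of the 3 h change from WT, with its standard error, for STK19_KO1, STK19_KO2 and CSB_KO in the 12 leading higher and 11 leading lower members. STK19_KO1 and STK19_KO2 lie on the same side of 0 for all 23 genes, which the choice of members fixed, while CSB_KO lies near 0 for RNF144B (0.07), ZFYVE1 (-0.03) and EHBP1L1 (0.00) and below 0 for ID2 (-1.26).

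Signalling genes moved in both directions. Of 30 immediate early genes, 9 were higher and 4 lower members, with a median difference of 0.14, against 10.03% higher, 17.05% lower and a median of -0.042 over all genes tested. With EGR1, the higher ones included FOS, the AP-1 subunit (0.63 ± 0.10, edgeR adjusted p = 1.725e-06), and MAFF (0.36 in STK19_KO1 and 2.04 in STK19_KO2), which overlaps PLA2G6. The lower ones included the matrix-protein gene CCN2 (-0.61 ± 0.09), the stress gene IER5 (-0.53 ± 0.09) and the zinc finger gene KLF10 (-0.46 ± 0.08), all of which rose in both lines. The lines differed over this list: its median difference was -0.15 in STK19_KO1 and 0.49 in STK19_KO2, and 3 of the 9 higher genes were called in each line's own test. Of 26 ERK feedback genes, 10 were higher and 2 lower (median 0.16), 5 of the 10 called in each line's own test. Their median was 0.04 in STK19_KO1 and 0.40 in STK19_KO2. Besides SPRY4, the ETS factor gene ETV5 rose in the knockouts (log2 change 0.32) and fell in WT (-0.73), a difference of 1.05 ± 0.07 (edgeR adjusted p = 3.504e-18). ETV5 overlaps DGKG. The immediate early counts were 9 and 4, and the ERK counts 8 and 1, without replicate 1 of WT at both times.

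A list of 19 genes held P-TEFb, the kinase that releases paused polymerase, its 7SK inhibitor, and other elongation and pausing factors. Of these genes 5 were higher and 2 lower (median 0.06). ELL, an elongation factor gene, differed by 0.67 ± 0.10, the kinase gene CDK9 by 0.42 ± 0.07 and MEPCE, the 7SK capping enzyme gene, by 0.27 ± 0.08 (edgeR adjusted p = 7.592e-07, 1.065e-05 and 0.005841). CDK9 rose in both, by 0.64 in the knockouts and 0.22 in WT, while ELL fell in both. NELFCD (-0.13), a subunit of the pausing factor NELF, was lower. MEPCE differed by 0.14 (edgeR adjusted p = 0.09686) without replicate 1 of WT at 3 h. In the fit on 18 libraries 2 of the 19 were higher and none lower, and with upper quartile scaling 7 and none. The median of the 19 genes was -0.06 in STK19_KO1 and 0.14 in STK19_KO2, and 0.019 over both without replicate 1 of WT at 3 h.

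Other inducible pathways were mixed. The 30 p53 targets held 4 higher and 5 lower genes (median 0.00), among them PLK3 (0.90) and FBXW7 (0.52) on the higher side and CCNG1 (-0.48) and PLK2 (-0.42) on the lower. NF-kB and inflammation genes had 3 higher and 1 lower of 18 (median 0.10), with the inhibitor gene NFKBIE at 0.58. Of 20 YAP and Hippo genes 3 were higher and 6 lower (median -0.05): the inhibitory kinase gene LATS2 differed by 0.68, YAP1 by -0.45 and its DNA-binding partner TEAD1 by -0.41. Of 22 ID, BMP and TGF-beta feedback genes 6 were higher and 5 lower (median 0.00), and ID4 (-0.51) was lower with ID2, as was SNAI1 (-0.51; -0.43 with edgeR adjusted p = 0.05328 without replicate 1 of WT at 0 h). Notch genes had 1 higher (HEYL, 0.75) and 3 lower of 19 (median 0.03), including HEY1 (-0.47). Interferon-stimulated genes had 1 higher and 1 lower of 20 (median -0.09), with STAT2, a JAK pathway factor, at 0.47. ATF4 targets had 1 higher and 7 lower of 24 (median 0.04), with asparagine synthetase ASNS at -0.30, and the unfolded protein response had 1 higher and 3 lower of 16 (median -0.04). List medians had opposite signs in the lines for NF-kB (-0.05 in STK19_KO1 and 0.30 in STK19_KO2), YAP and Hippo (-0.18 and 0.09 in the same order) and ATF4 targets (-0.13 and 0.07). With the 3 h library of WT replicate 1 left out, NF-kB genes had 1 higher and 1 lower (median 0.03), and the medians of ATF4 targets (-0.08), Notch genes (-0.09) and p53 targets (-0.06) were below 0. Upper quartile scaling put the medians of YAP and Hippo (0.04) and unfolded protein response genes (0.04) above 0. The fit on 18 libraries had 2 higher and 3 lower p53 targets, 1 higher NF-kB gene, 3 lower ATF4 targets and no call in the unfolded protein response.

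Cell cycle genes with a call were all lower members. Of 28 mitotic genes 22 were lower and none higher (median -0.29), against 17.05% lower over all genes, and of 30 G1/S genes 19 were lower and none higher (median -0.21). ANLN, the cytokinesis scaffold anillin, fell to 48.2, 44.8 and 35.7 CPM in STK19_KO1, 43.5, 44.1 and 42.8 CPM in STK19_KO2 and 79.5, 72.8 and 70.2 CPM in WT at 3 h. At 0 h ANLN stood at 119, 115 and 118 CPM in STK19_KO1, 109.6, 111 and 111 CPM in STK19_KO2 and 151, 126 and 129 CPM in WT. It fell in every line and further in the knockouts, a difference of -0.53 ± 0.08 (edgeR adjusted p = 3.283e-06). The differences of the hyaluronan receptor gene HMMR and of topoisomerase TOP2A were -0.46 ± 0.11 and -0.37 ± 0.08 (edgeR adjusted p = 0.0009702 and 0.0005582).

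CCNE1, the cyclin that drives entry into S phase, rose. At 3 h CCNE1 stood at 87.2, 89.9 and 95.2 CPM in STK19_KO1, 86.7, 92.4 and 90.04 CPM in STK19_KO2 and 126, 124 and 128 CPM in WT. At 0 h CCNE1 stood at 49.2, 50.99 and 51.7 CPM in STK19_KO1, 55.2, 57.6 and 57.3 CPM in STK19_KO2 and 58.9, 56.3 and 56.8 CPM in WT. Every WT library at 3 h was above every knockout library, and the difference was -0.39 ± 0.04 (edgeR adjusted p = 2.564e-09). RRM1, a subunit of ribonucleotide reductase, differed by -0.40. With upper quartile scaling 16 mitotic genes were lower and none higher, and 12 G1/S genes were lower and 2 higher. In the fit on 18 libraries 7 mitotic and 6 G1/S genes were lower, and without replicate 1 of WT at 3 h 16 of each.

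Genes of translation, respiration and splicing were also on the lower side. All 45 cytosolic ribosomal protein genes rose in the knockouts and in WT, and 29 of them were lower members, none higher (median -0.25). RPL4 averaged 3153 ± 329 CPM in STK19_KO1, 2917 ± 57.1 CPM in STK19_KO2 and 3971 ± 394 CPM in WT at 3 h (SD, n = 3 each). At 0 h RPL4 averaged 2565 ± 35.7 CPM in STK19_KO1, 2426 ± 90.01 CPM in STK19_KO2 and 2518 ± 113 CPM in WT, and its difference of changes was -0.38 ± 0.06 (edgeR adjusted p = 5.596e-06). The median change of the 45 genes was 0.75 in replicate 3 of STK19_KO1 and 0.33 and 0.39 in the other 2, and it was 0.81 in replicate 1 of WT and 0.57 and 0.60 in the other 2. Without replicate 1 of WT at 3 h 14 of the 45 were lower, and in the fit on 18 libraries 2. Of 37 nuclear oxidative phosphorylation genes 18 were lower (median -0.21), of 30 splicing factor genes 19 lower and 1 higher (median -0.19), and of 13 mitochondrially encoded genes 1 lower (median -0.29). The splicing kinase genes went apart, CLK3 at 0.36 and CLK1 at -0.41, though without replicate 1 of WT at 3 h CLK1 stood at -0.21 (edgeR adjusted p = 0.08191). The median change of splicing genes was 0.40 in replicate 1 of WT against 0.18 and 0.18, and that of mitotic genes -0.05 against -0.31 and -0.33. Upper quartile scaling gave 17 ribosomal, 7 respiratory and 9 splicing genes lower, with 4 splicing genes higher. Leaving out replicate 1 of WT at 3 h, 8 genes of nuclear oxidative phosphorylation were lower, and 8 splicing factors were lower and 4 higher. The fit on 18 libraries called 1 respiratory gene lower, and 2 splicing genes lower and 1 higher.

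Of 13 heat shock genes, 8 were lower and none higher (median -0.28). The median difference of CSB_KO from WT over this list was also -0.28, but the same WT libraries enter both differences. The median change of the heat shock genes was 0.62, 0.22 and 0.29 in replicates 1, 2 and 3 of WT. The cytosolic chaperone gene HSP90AA1 (-0.36 ± 0.10) and the mitochondrial HSPD1 (-0.38 ± 0.07) rose in both and by less in the knockouts (edgeR adjusted p = 0.007502 and 8.482e-05). With replicate 1 of WT at 3 h left out, 4 heat shock genes were lower, and HSP90AA1 differed by -0.13 (edgeR adjusted p = 0.3095). Of 28 hypoxia and glycolysis genes 12 were lower and none higher (median -0.15), such as LDHA (-0.29). With upper quartile scaling 3 were lower and 2 higher. In the fit on 18 libraries 2 heat shock genes and 1 hypoxia or glycolysis gene were lower.

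Repair and transcription genes were less one-sided. Of 12 genes of transcription-coupled repair 1 (ERCC6) was higher and 4 lower (median -0.04), the largest of them CUL4A (-0.30), a ubiquitin ligase scaffold. Of 29 nucleotide excision repair genes 1 was higher, the nuclease subunit gene ERCC4 (0.34), and 8 lower (median -0.15), among them RAD23B (-0.39), a partner of the lesion sensor XPC, and MNAT1 of the TFIIH kinase (-0.45). MNAT1 differed by -0.14 (edgeR adjusted p = 0.3403) without replicate 1 of WT at 3 h. The ATR checkpoint had 1 higher and 4 lower of 16 (median -0.13), and recombination and Fanconi genes 2 higher and 5 lower of 25 (median -0.03), led by the end-resection factor gene RBBP8 (-0.53). RNA polymerase II subunits had 2 lower of 12 (median -0.14), POLR2B (-0.30) and POLR2C (-0.20; -0.13 with edgeR adjusted p = 0.053 without replicate 1 of WT at 3 h). General transcription and Mediator genes had 4 higher and 10 lower of 40 (median -0.09), the higher side led by TAF5 (0.63 ± 0.07) and MED7 (0.57 ± 0.12). With upper quartile scaling the medians of transcription-coupled repair (0.04) and of recombination genes (0.06) were above 0, and no ATR checkpoint gene was lower and 2 were higher. When replicate 1 of WT at 3 h was left out, the ATR list had 2 lower genes (median -0.02) and the recombination list 1 higher and 3 lower (median 0.00). In the fit on 18 libraries no ATR checkpoint or RNA polymerase II gene was called, and 1 recombination gene, 2 nucleotide excision repair genes, 1 of transcription-coupled repair and 2 of general transcription and Mediator were lower.

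The remaining lists held few members. BCL2 family genes had 2 higher and 1 lower of 16 (median 0.13): the survival genes MCL1 (0.44) and BCL2 (0.51) were higher and BCL2L11 lower. Circadian genes had 4 higher and none lower of 18 (median -0.04), with HLF (0.61) and BMAL1 (0.50) beside PER2. The MYC and MAX network had 1 higher, MYC itself (0.26), which fell in both, and 3 lower of 16 (median -0.01). Cholesterol synthesis had 2 higher and 4 lower of 23 (median -0.08), with INSIG1, which retains the sterol sensor SCAP, at -0.53. Replication histone genes had 3 higher and 4 lower of 22 (median -0.46), at low levels in polyadenylated RNA. Of 15 neuronal genes 7 were lower and none higher (median -0.23), including the neurofilament gene NEFL (-0.49), which the HEK293 markers also hold. Upper quartile scaling put the medians of circadian (0.05) and MYC network genes (0.07) above 0 and that of cholesterol genes at 0.004. In the fit on 18 libraries 66 of 146 genes named by rule lost their calls. Of those described above, these were MEPCE, NELFCD, ERCC4, MNAT1, CCNG1, HSP90AA1, SNAI1, HMMR, TOP2A, POLR2B, POLR2C, LDHA, CLK1 and MUC16.

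**Figure D4:**
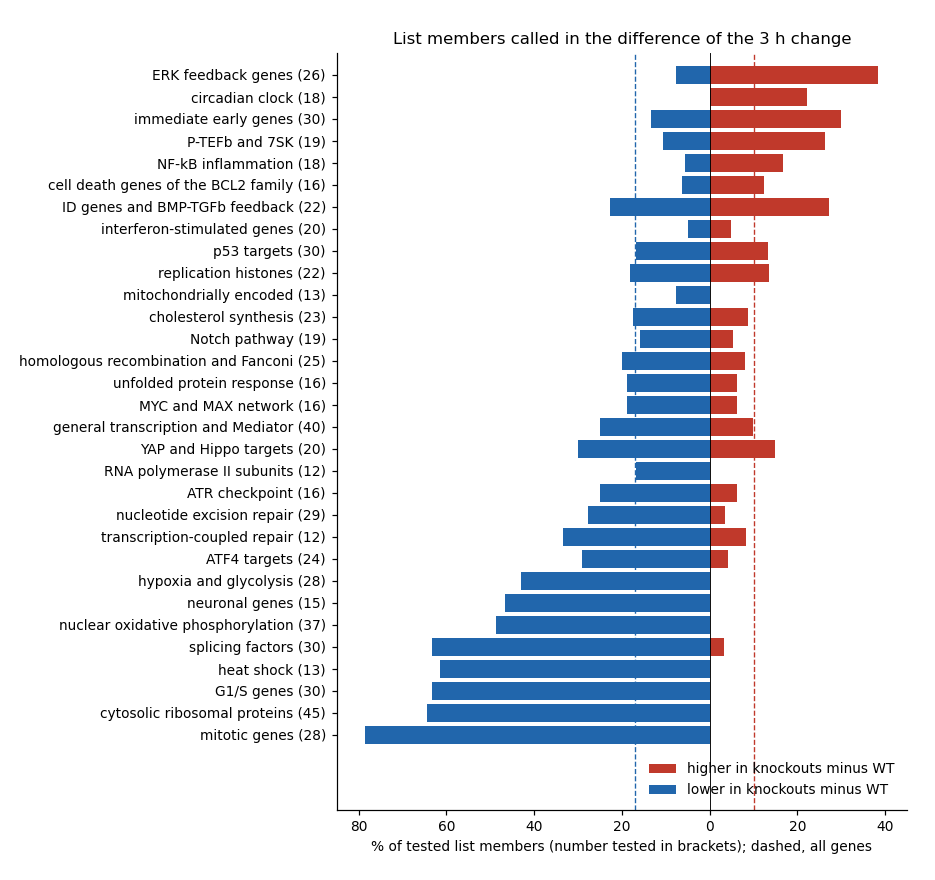
Percent of the tested genes of each of 31 lists that were higher members (right) or lower members (left), with the counts; dashed lines mark 10.03% and 17.05% for all genes tested. ERK feedback (38.5%) and immediate early genes (30%) reach past the dashed line on the higher side. So do other lists, including ID, BMP and TGF-beta feedback (27.3%), P-TEFb and 7SK (26.3%) and circadian genes (22.2%). Lists past the dashed line on the lower side include mitotic, ribosomal, G1/S, splicing and heat shock genes.

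Members were also described by genomic span and by level. Of genes under 10 kb, 272 of 3124 were higher and 315 lower, with a median difference of -0.005. Of those spanning 100 to 300 kb, 198 of 2475 were higher and 622 lower (median -0.12), and of 640 genes of at least 300 kb, 21 were higher and 145 lower (median -0.17). In the last class the median log2 change was -0.58 in the knockouts and -0.43 in WT, and in the first 0.39 and 0.40. The classes between, 10 to 30 kb and 30 to 100 kb, had 448 higher and 578 lower of 4256 (median -0.02) and 613 higher and 977 lower of 4975 (median -0.04). With upper quartile scaling the median was 0.08 for the shortest class and -0.08 for the longest. The balance among genes under 10 kb was not stable: 389 were higher and 284 lower without replicate 1 of WT at 0 h, 268 and 155 without it at both times, and 121 and 66 in the fit on 18 libraries. In that fit the classes of 100 to 300 kb and of at least 300 kb had 103 higher and 183 lower, and 15 higher and 57 lower. Replicate 3 of STK19_KO1 had the deepest fall of the longest class, a median of -0.79 against -0.51 and -0.55. BCAR3 and STARD13, of 100 to 300 kb, belong to the 198 higher genes of their class.

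The direction also varied with the level of a gene. Of 583 genes with a mean log2 CPM of at least 8, 376 (64.5%) were lower and 3 higher, with a median of -0.23. Of 2984 genes between 6 and 8, 1119 were lower and 119 higher, and of 4959 between 4 and 6, 854 and 704. Of 2614 genes between 2 and 4, 172 were lower and 519 higher, and of 4330 below 2, 116 and 207. The cytosolic ribosomal protein genes, at a median log2 CPM of 10.2, had 64.4% lower members, close to the share of all genes at such levels, and the splicing genes (median 8.86) had 63.3%. The mitotic genes, at a median of 6.94, had 78.6%, against 37.5% of all genes between 6 and 8. Upper quartile scaling gave 229 lower and 10 higher in the highest class (median -0.15) and 82 lower and 701 higher between 2 and 4. Between 4 and 6 it gave 354 lower and 1093 higher, the fit on 18 libraries 184 and 290, and leaving out replicate 1 of WT at 3 h 494 and 684, so the balance of that class turned. Without replicate 1 of WT at both times the highest class held 312 lower and 6 higher.

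**Figure D5:**
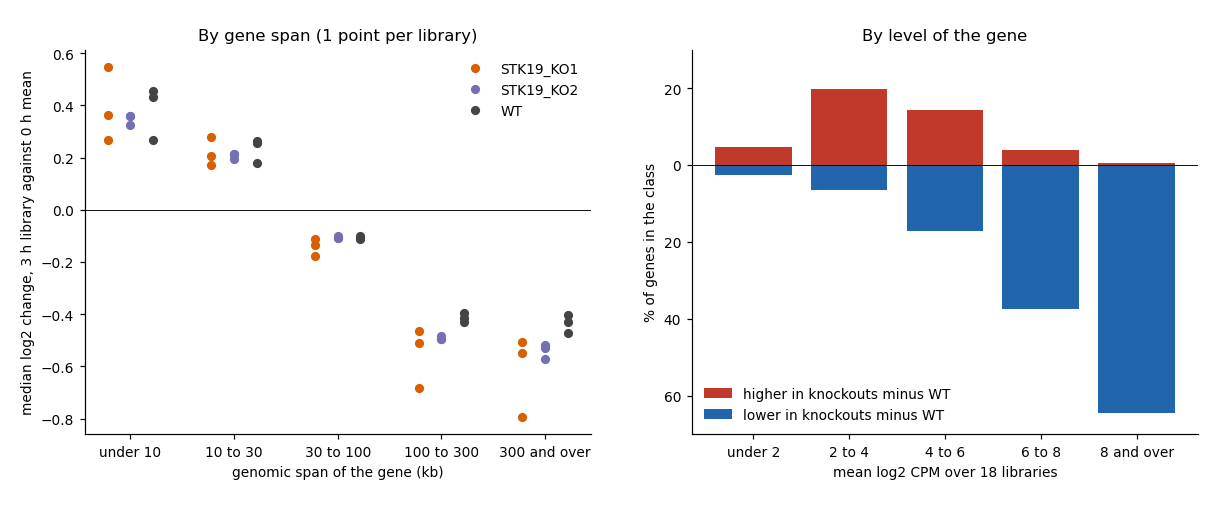
Genes by genomic span in kb and by mean log2 CPM, with the percent that were higher and lower members given by level. The share of lower members grows with level, to 64.5% at a log2 CPM of 8 and over, and is 25.1% and 22.7% in the 2 longest span classes.

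Against WT, the lines stood apart before UV as well. The STK19 knockouts differed from WT for 9707 genes (62.7%; 4849 or 31.3% higher, 4858 or 31.4% lower) at 3 h and for 7973 (51.5%; 4511 or 29.2% higher, 3462 or 22.4% lower) at 0 h. Of the higher members, 629 (40.5%) were higher at 3 h with no call at 0 h, 490 (31.6%) were higher at both, and 211 had no call at 3 h and were lower at 0 h. A further 102 were higher at 3 h and lower at 0 h, 92 were lower at both and 28 had no call at either time. Of the lower members, 1076 (40.8%) were lower at 3 h with no call at 0 h, 687 were lower at both, and 425 had no call at 3 h and were higher at 0 h. Another 267 were higher at both, 154 were lower at 3 h and higher at 0 h, and 28 had no call at either. EGR1, SPRY4, ID2, DLL4 and PHLDA1 belong to the genes that differed at 0 h, while ERCC6, PER2 and TENT5A had no call there.

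The STK19 lines gave unequal numbers of calls. The difference from WT was called for 2592 genes in STK19_KO1 (16.8%; 755 or 4.88% higher, 1837 or 11.9% lower) and for 3986 in STK19_KO2 (25.8%; 1714 or 11.1% higher, 2272 or 14.7% lower). Both own tests called 1871 members (12.1%), 650 (4.20%) higher and 1221 (7.89%) lower. Tested directly, the change differed between STK19_KO1 and STK19_KO2 for 347 genes (2.24%; 40 or 0.259% higher and 307 or 1.98% lower in STK19_KO1), and for 116 higher members (7.47%) and 58 lower members (2.2%). This count was 160 without replicate 3 of STK19_KO1 at 3 h and 980 without its replicate 1. It includes EGR1 and SPRY4, with differences of -0.95 and -1.30, STK19_KO1 minus STK19_KO2, on the log2 scale. Median differences over the higher members were 0.34 in STK19_KO1 and 0.48 in STK19_KO2, and over the lower ones -0.29 and -0.30.

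CSB_KO was set beside the STK19 lines in the same fit. The change in CSB_KO differed from that in WT for 1513 genes (9.78%), with 229 (1.48%) higher and 1284 (8.30%) lower. The median over the members was 0.02 for the higher and -0.11 for the lower. Among the higher members, 81 (5.22%) had a CSB_KO call of the same sign and 194 (12.5%) of the opposite sign. Among the lower members these counts were 355 (13.5%) and 9 (0.341%). The same WT libraries at 0 h and 3 h enter the differences of CSB_KO and of the STK19 knockouts. Calls of the same sign are therefore partly built in. Tested against CSB_KO, the mean change of the STK19 knockouts differed for 4415 genes (28.5%; 2341 or 15.1% higher, 2074 or 13.4% lower). It was higher for 1031 of the 1552 higher members (66.4%) and lower for 1237 of the 2637 lower members (46.9%), with 2 and 78 in the opposite direction; the STK19 libraries enter both contrasts. RNF144B, ZFYVE1 and TGFBR2 were higher in the STK19 knockouts' response than in that of CSB_KO by 1.48, 1.03 and 0.91. ID2 and ERCC6 had no such call (0.14 and -0.21), ERCC6 being the edited gene of CSB_KO. CSB_KO's own differences from WT for these 2 genes were -1.26 and 0.95. List medians in CSB_KO were -0.59 for mitochondrially encoded genes, -0.60 for replication histones and -0.12 for nucleotide excision repair. In the STK19 knockouts they were -0.29, -0.46 and -0.15. For mitotic (-0.10), ribosomal (-0.12), G1/S (-0.12), respiratory (-0.07) and splicing genes (-0.12) the CSB_KO medians were smaller in size. Those of the STK19 knockouts were -0.29, -0.25, -0.21, -0.21 and -0.19.

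At 4 h in DMSO, the vehicle of the inhibitor arm, the difference of changes between the STK19 knockouts and WT was called for 4118 genes (26.6%; 1848 or 11.9% higher, 2270 or 14.7% lower). It shares the 0 h libraries with the 3 h contrast, so the values are given side by side only. Among the higher members 1074 (69.2%) had a call of the same sign at 4 h and 1 of the opposite sign, and among the lower 1350 (51.2%) and 3. The 4 h and 3 h differences were 1.80 and 1.54 for RNF144B, 1.74 and 1.59 for EGR1, 0.57 and 0.98 for PER2, -0.87 and -1.12 for ID2, and -1.65 and -0.97 for OVGP1. PER2 and ID2 were nearer 0 at 4 h and OVGP1 farther from it.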

How the data were processed

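Polyadenylated RNA of HEK293 Flp-In T-REx lines was sequenced from directional libraries. Per the submitters' processing notes, STAR, RSEM, deepTools 3.5.1 and GRCh38 were used; versions of STAR and RSEM and the annotation release are not given in the sources used here. The authors deposited unnormalised expected counts per gene, which hold whole numbers. Whether counting used strand is not stated, so overlapping genes are uncertain. Signal tracks were not used.

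All 72 libraries in 24 groups entered 1 quasi-likelihood fit (edgeR 4.0.16, R 4.3.3) with trimmed-mean scaling and 1 coefficient per group. Of 19324 genes, filterByExpr (minimum count 10, minimum total 15) kept 15470. Contrasts were adjusted by Benjamini-Hochberg over all of them. The procedure was tested on simulated counts, which does not check the number of calls in these data. Totals of the 18 libraries were 42.2 to 116 M counts. The labels do not say whether replicates were separate cultures, so p-values measure the spread between these samples, which may be technical.

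Named were STK19, ERCC6, ERCC8, UVSSA and ELOF1, and the 12 genes each way with the largest difference, ranked by the smaller of the clones' estimates. They had to be called in the mean and in each clone, with at least 50 counts per library in each line and a log2 CPM averaging at least 2. From each list, up to 3 genes called each way were eligible. A few genes that the rule names are not reported here, which leaves 11 leading lower genes. Members and lists were chosen with earlier results of these data known. Level classes were added after seeing the data. Alternatives were other scalings, no filter, DESeq2 1.42.0, 18 libraries alone, replicate blocks and leaving out libraries. Promoters came from RefSeq (GRCh38.p14). Figures were drawn with matplotlib 3.10.9.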

Additional observations from a re-analysis of the deposited data

Results flagged for a closer look

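Among the genes named by rule, the 3 h change differed between the STK19 clones for 18, tested directly in edgeR. On the log2 scale, STK19_KO1 minus STK19_KO2, these differences were -1.30 for SPRY4, -0.95 for EGR1, -0.55 for PHLDA1, 0.81 for EHBP1L1, -0.42 for FOS, -1.68 for MAFF, -0.50 for CCN2, -0.70 for KLF10 and -0.63 for ETV5. They were -1.02 for PLK3, -0.34 for PLK2, -0.30 for STAT2, -0.28 for ID4, 0.18 for CCNE1, -0.68 for H2BC21, -0.48 for TAF5, -0.36 for MCL1 and -0.70 for BCL2. All but EHBP1L1 and CCNE1 had the lower change in STK19_KO1.

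The change in the STK19 knockouts differed from that in CSB_KO for 16 of the 23 leading genes, again by a direct test in edgeR. The higher differences, STK19 minus CSB_KO, were 1.48 for RNF144B, 1.43 for SPRY4, 0.73 for BCAR3, 0.63 for EGR1, 0.77 for ZSWIM4, 1.12 for C3orf70, 0.42 for STARD13, 1.03 for ZFYVE1, 1.07 for SYNM, 0.91 for TGFBR2, 0.77 for UFSP1, 1.07 for PER2 and 0.33 for BCL2L11. The lower ones were -0.61 for PHLDA1, -1.10 for EHBP1L1 and -1.0 for MUC16. BCL2L11 fell further in CSB_KO than in the STK19 knockouts, and its level at 3 h was 22.2 ± 0.885 CPM there (SD, n = 3).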

How the results depend on the processing

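Of 146 named genes, 72 kept the call they had in every one of 27 alternatives. Upper quartile scaling gave 1310 lower calls and 1303 lower members. The fit on 18 libraries gave 1321 calls (691 higher, 630 lower), 1320 members (690 higher, 630 lower), 362 calls in STK19_KO1, 1224 in STK19_KO2 and 27 between the clones. Between the clones, 194 genes were called with no filter and 546 without replicate 1 of WT at both times. DESeq2 gave 1568 higher and 2855 lower members. Leaving out 1 library at a time gave 3201 to 4732 calls (1221 to 1756 higher, 1886 to 2976 lower), 3190 to 4723 members (1218 to 1752 higher, 1878 to 2971 lower), 1787 to 3346 calls in STK19_KO1, 3245 to 4517 in STK19_KO2 and 160 to 980 between them. The changes gave 10155 to 10850 calls in the STK19 knockouts and 9123 to 9706 in WT, and the difference of lines 8866 to 9788 at 3 h and 7250 to 8468 at 0 h. Without replicate 1 of WT at 3 h, 59.1% of members were shared. The causes were not tested.

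No call was attached to the reversals: STK19 at 0.076 with upper quartile scaling and -0.076 to 0.055 without 1 library, ERCC8 at 0.023, at -0.14 to 0.065 and at 0.014 without replicate 1 of WT at both times, and ELOF1 at 0.073 and -0.12 to 0.074.

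With the replicate number as a block, 4572 genes were called (1693 higher and 2865 lower members), and with a block within each line 4691 (1766 and 2911). Same-numbered libraries at 3 h and 0 h correlated in their deviations at 0.041 to 0.164 in STK19_KO1, 0.041 to 0.125 in STK19_KO2 and 0.582 to 0.767 in WT. Since some pairs in the STK19 lines were under 0.1, the main fit did not take the numbers as pairing the samples. In WT, where replicate 1 stood apart at both times, replicates 2 and 3 also correlated across numbers, at 0.608 and 0.661. Between STK19_KO1 and WT, same-numbered libraries correlated at 0.096 to 0.574 at 3 h and -0.10 to 0.28 at 0 h. Libraries of other numbers gave -0.55 to 0.47 and -0.32 to 0.27. Between STK19_KO2 and WT, same numbers gave 0.016 to 0.175 at 3 h and 0.013 to 0.253 at 0 h. Other numbers gave -0.17 to 0.175 and -0.24 to 0.252. Whether the lines share an effect of replicate number was not tested.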
